A study of Mus musculus with 12 samples.

Results

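The nuclear genes for complexes III to V of the respiratory chain were examined in the left ventricle of WT and cm*Gch1* KO mice. Members were the protein-coding genes of GENCODE M21 (GRCm38) with a symbol beginning Uqcr, Cox4, Cox5, Cox6, Cox7, Cox8 or Atp5, together with *Cyc1* and *Cycs*. The rule gave 46 gene models, against 26921 gene identifiers in the counts table, with 9 for complex III, 18 for complex IV, 18 for complex V and 1 for cytochrome c. Of these, 44 had a row in the counts table, *Cox8c* and a second *Atp5o* model being the exceptions. The comparison covered 11225 genes with more than 3 cpm (counts scaled to a common library total, adjusted by the TMM factors of edgeR) in at least 6 libraries, and 42 members passed this filter. RNA had been taken from 16-week-old mice, 6 of each genotype. WT mice carried *Gch1* flox/flox alleles, and cm*Gch1* KO mice carried the same alleles with an α-MHC Cre transgene, whose promoter drives recombination in cardiomyocytes. The other cells of the ventricle therefore kept *Gch1*, the gene for the first enzyme of BH4 synthesis, and since the Cre transgene was present in the cm*Gch1* KO mice alone, its presence and the loss of *Gch1* cannot be told apart. Each library came from a single animal according to the methods of the study.

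Complex III (ubiquinol-cytochrome c reductase) passes electrons from ubiquinol to cytochrome c, complex IV (cytochrome c oxidase) passes them on to oxygen, and complex V (ATP synthase) uses the resulting proton gradient to make ATP. Each complex combines a few subunits encoded by mitochondrial DNA with many encoded in the nucleus, and these nuclear transcripts are among the most abundant in heart muscle. Several subunits of complex IV exist as a muscle-type isoform, made in heart and skeletal muscle, and an isoform found in most other tissues.

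The libraries held between 19921398 and 37917806 counts. *Gch1* was at 9.32 to 12.2 cpm in WT (median 10.8) and 3.94 to 6.35 cpm in cm*Gch1* KO (median 5.58), without overlap (log2 fold change −0.96, SE 0.11, FDR 6.88e-04, edgeR quasi-likelihood test). cm*Gch1* KO replicates 2 and 3 had *Xist* at 87.1 and 99.6 cpm with no count from 4 Y-linked genes, a combination seen in no other library. Mitochondrial genes took 14.9% and 16.1% of the counts in these libraries and between 18.3% and 22.9% in the others. Sex is not given in the labels, so the main values are also given without these libraries. The WT libraries had 168 to 193 cpm from the Y-linked genes. By these genes, cm*Gch1* KO replicates 2 and 3 read as female and all WT libraries as male. The methods of the study state that both sexes were used and that mice were sex-matched.

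No member passed a false discovery rate (FDR) of 0.05 between genotypes in the edgeR quasi-likelihood test (0 of 42), against 1.12% of all tested genes in either direction and 0.445% lower in cm*Gch1* KO. At an unadjusted p under 0.05 the edgeR test had 2 members lower in cm*Gch1* KO, *Uqcrc1* and *Atp5s*, against 4.51% of all genes, and none higher, against 7.01%. Small negative differences were nevertheless spread over nearly the whole set. The log2 fold change was below 0 for 39 of 42 members, against 53.3% of all tested genes, and the median was −0.16 against −0.01 for all tested genes. The exceptions were *Cox8a*, *Cox6a1* and *Cycs*, with log2 fold changes of 0.03, 0.02 and 0.00. Without the libraries with high *Xist*, 42 of 42 members had a log2 fold change below 0, against 49.4% of all tested genes. The median in that setting was −0.19, against 0.002 for all tested genes. No member reached an unadjusted p of 0.05 in edgeR, against 295 lower and 505 higher of all 11225 tested genes. Members vary together across libraries, as described further on, so the number of members below 0 is not a number of independent observations. The smallest FDR among members was 0.366 by edgeR, and standard errors ranged from 0.05 to 0.27 on the log2 scale.

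**Figure D1:**
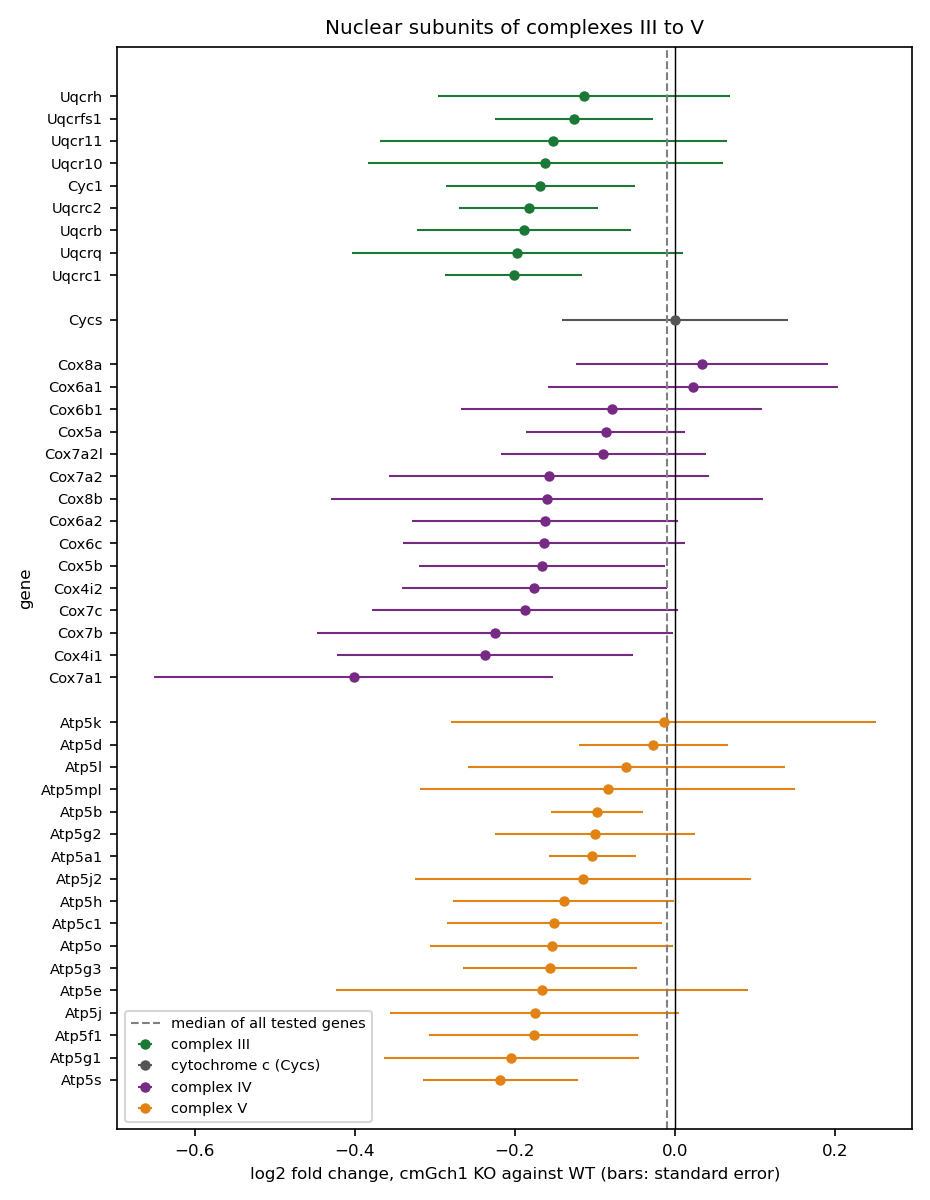
Log2 fold change of each tested member, cm*Gch1* KO against WT (horizontal axis), with the standard error as a bar, sorted within complex III, cytochrome c, complex IV and complex V; the dashed line is the median of all tested genes (−0.01). Of 42 points 39 lie left of 0, with *Cox7a1* (−0.40) farthest, and none passed an FDR of 0.05.

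Levels of cell type markers are given beside this difference. Cardiomyocyte markers had a log2 fold change below 0 for 8 of 9 genes, with a median of −0.16. Their summed level was 64457 to 68268 cpm in WT and 58121 to 62132 cpm in cm*Gch1* KO, without overlap. These sums use TMM scaling, whose factor was lowest in WT replicate 4 (0.95) and highest in cm*Gch1* KO replicate 2 (1.09). Whether the sums stay apart with scaling by library size alone was not tested. How often other sums of this kind separate was not tested either. Taken singly, each cardiomyocyte marker overlapped between genotypes. *Myh6* alone had a mean of 23171 cpm in WT, within a mean sum of 65501 cpm. Macrophage markers had a log2 fold change above 0 for 6 of 6 genes, with a median of 0.27. Of these, 5 had an unadjusted p under 0.05 in edgeR, against 7.01% of all tested genes that were higher in this way. Their summed level was 188 to 305 cpm in WT and 242 to 360.0 cpm in cm*Gch1* KO. None of the cardiomyocyte or macrophage markers passed an FDR of 0.05 in edgeR. Without the libraries with high *Xist* the medians of these lists were −0.12 and 0.23. In that setting 3 of the 6 macrophage markers were higher at an unadjusted p under 0.05 in edgeR, against 505 of all 11225 tested genes. Fibroblast markers had 6 of 6 genes above 0, with a median of 0.11, and summed to 793 to 1060.4 cpm in WT and 895 to 1102 cpm in cm*Gch1* KO. Of the remaining lists, endothelial markers had 4 of 6 genes above 0 (median 0.04), smooth muscle and pericyte markers 2 of 6 (−0.07), atrial markers 3 of 4 (0.14) and erythroid markers 0 of 5 (−0.39). The genes of these lists that passed the FDR were *Acta2* (0.66), *Nppa* (1.53) and *Mybpc2* (0.80, the 1 skeletal muscle marker tested), all higher in cm*Gch1* KO, and the 1 adipocyte marker tested was at 0.24. Without the libraries with high *Xist* the log2 fold changes of *Acta2*, *Nppa* and *Mybpc2* were 0.52, 1.31 and 0.77, with FDRs of 0.039, 0.157 and 0.056 in edgeR. Their part in the results for the members was not tested. In tissue RNA, fewer cardiomyocytes and less of these transcripts per cardiomyocyte cannot be told apart.

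In complex III, all 9 members had a log2 fold change below 0, in a narrow range from −0.20 to −0.11 with a median of −0.17. *Uqcrc1* encodes a core protein of the matrix arm. It lies at chr9:108936633-108949623 on the plus strand (GRCm38). Its level was 1441, 1585 and 1864 cpm in WT (lowest, median and highest) and 1257, 1363 and 1666 cpm in cm*Gch1* KO, so that 4 of the 6 cm*Gch1* KO libraries were below every WT library and cm*Gch1* KO replicate 1 was well inside the WT range. The log2 fold change of *Uqcrc1* was −0.20 (SE 0.09, unadjusted p = 0.034, FDR 0.366, edgeR). An exact two-sided permutation test of the genotype labels gave p = 0.043, and 0.095 without the libraries with high *Xist*. *Uqcrc2*, the partner core protein, showed 962, 1082 and 1242 cpm in WT and 889, 933 and 1154 cpm in cm*Gch1* KO. Here 3 cm*Gch1* KO libraries were below every WT library and the log2 fold change was −0.18 (SE 0.09, FDR 0.450, edgeR).

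The redox-active subunits of complex III overlapped widely between genotypes. *Cyc1* encodes cytochrome c1, which hands electrons to cytochrome c. It was at 767, 1007 and 1188 cpm in WT and 754, 854 and 1081 cpm in cm*Gch1* KO (log2 fold change −0.17, SE 0.12, FDR 0.680, edgeR). *Uqcrfs1* encodes the Rieske iron-sulfur protein. It was at 802, 906 and 1044 cpm in WT and 732, 807 and 1045 cpm in cm*Gch1* KO (−0.13, SE 0.10, FDR 0.723). The 5 small subunits, *Uqcrb*, *Uqcrq*, *Uqcrh*, *Uqcr10* and *Uqcr11*, had log2 fold changes between −0.20 and −0.11. *Uqcrq*, the lowest of these, was at 429.5, 544 and 793 cpm in WT and 304, 482 and 712 cpm in cm*Gch1* KO with an SE of 0.21. Cytochrome c itself, from *Cycs* at chr6:50562563-50566538, was at 753, 859.7 and 1040.3 cpm in WT and 617, 835 and 1177 cpm in cm*Gch1* KO, with the cm*Gch1* KO libraries on both sides of the WT range (0.00, SE 0.14, FDR 1.0).

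**Figure D2:**
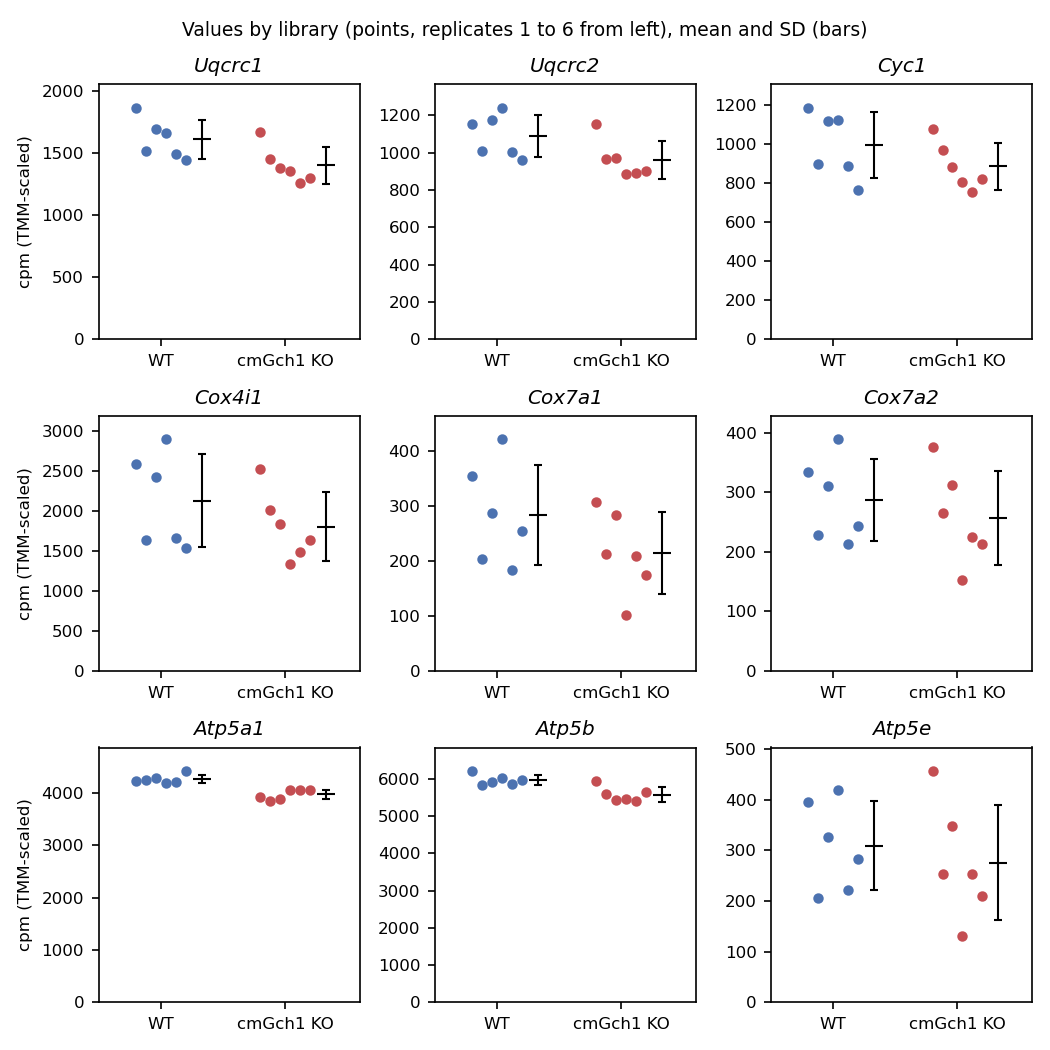
TMM-scaled cpm (vertical axes, from 0) of 9 members in each library, with WT replicates 1 to 6 and cm*Gch1* KO replicates 1 to 6 from left to right and the mean and SD beside them. *Atp5a1* is the panel without overlap, at 4189 to 4424 cpm in WT and 3852 to 4059 cpm in cm*Gch1* KO; *Atp5e*, shown as an example of a short transcript chosen after its values were seen, runs from 131 to 457 cpm within cm*Gch1* KO.

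In complex V, all 17 tested members had a log2 fold change below 0, with a median of −0.14. *Atp5a1* encodes the α subunit of the catalytic F1 head. It was at 4189, 4237 and 4424 cpm in WT and 3852, 3983 and 4059 cpm in cm*Gch1* KO, and every cm*Gch1* KO library was below every WT library. It was the 1 member of 42 whose genotypes did not overlap, against 1.87% of all tested genes, or 0.802% counted in this direction. The log2 fold change of *Atp5a1* was −0.10 (SE 0.05, FDR 0.518, edgeR). The exact permutation test gave p = 0.00216, and 0.005 without the libraries with high *Xist*. Each is the smallest value that its number of libraries allows, so both restate the lack of overlap. Neither was adjusted over the members. The difference depended on the scaling of libraries. With scaling by library size alone the log2 fold change of *Atp5a1* was −0.03. The median of all tested genes moved in the same direction, from −0.01 to 0.07. The Wald test of DESeq2, in contrast, gave *Atp5a1* an FDR of 0.036 for the same log2 fold change of −0.10. This was the 1 member of 42 called lower by DESeq2, against 1.38% of all tested genes, and 5 members were lower at an unadjusted p under 0.05 by DESeq2, against 5.26%.

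*Atp5b*, for the β subunit that carries the catalytic sites, had a higher mean per kilobase of transcript than any other member in WT (3113 ± 72.6 cpm per kilobase, SD, n = 6). This order depended on the length used. Per coding kilobase, *Cox4i1* was at 4196 ± 1148 cpm and *Atp5b* at 3758 ± 87.6 cpm in WT (SD, n = 6). *Atp5b* was at 5828, 5937 and 6212 cpm in WT and 5406, 5520.4 and 5928 cpm in cm*Gch1* KO. Of the cm*Gch1* KO libraries, 5 of 6 were below every WT library (−0.10, SE 0.06, FDR 0.579 by edgeR, exact permutation p = 0.009). Of the 42 tested members, *Uqcrc1*, *Atp5a1* and *Atp5b* had an exact permutation p under 0.05, which is 7.14%, near the 4.81% of all tested genes that were lower in this way. Without the libraries with high *Xist* these were *Atp5a1* and *Atp5b*, 4.76% of members against 2.78% of all tested genes. No member (0 of 42) had an exact permutation p under 0.05 when libraries were scaled by size alone, against 2.13% of all tested genes. The γ subunit gene *Atp5c1*, for the rotating shaft, showed 909.7, 1044 and 1294 cpm in WT and 817, 923 and 1365 cpm in cm*Gch1* KO. The highest of its 12 values was thus in a cm*Gch1* KO library, replicate 1 (−0.15, SE 0.13, FDR 0.767). *Atp5d* and *Atp5e*, for the δ and ε subunits of the central stalk, had log2 fold changes of −0.03 and −0.17.

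The genes for the membrane and stalk parts of complex V had log2 fold changes below 0 that did not pass the edgeR test. The 4 peripheral stalk genes, *Atp5f1*, *Atp5h*, *Atp5j* and *Atp5o*, which hold the F1 head still, lay between −0.18 and −0.14. The 4 small membrane subunits, *Atp5j2*, *Atp5k*, *Atp5l* and *Atp5mpl*, lay between −0.12 and −0.01. The proton-carrying ring is built from 1 mature protein encoded by 3 genes. *Atp5g1* was at 716, 934 and 1208 cpm in WT and 637, 798 and 1127 cpm in cm*Gch1* KO (−0.20, SE 0.16, FDR 0.722, edgeR). *Atp5g2* was at 137, 156 and 177 cpm in WT and 108, 139 and 194 cpm in cm*Gch1* KO, and *Atp5g3* at 1055, 1209 and 1446 cpm in WT and 936, 1057 and 1393 cpm in cm*Gch1* KO. Their log2 fold changes were −0.10 and −0.16. Ratios between these genes overlapped between genotypes, with a log2 difference of −0.04 for *Atp5g1* to *Atp5g3* (exact permutation p = 0.660, adjusted 0.660) and 0.04 for *Atp5g2* to *Atp5g3* (exact permutation p = 0.429, adjusted 0.643). *Atp5s* meets the rule by its symbol but encodes coupling factor B, which is not one of the standard subunits of the enzyme. It was the least abundant member of complex V, at 22.5, 26.2 and 29.1 cpm in WT and 20.6, 21.2 and 27.8 cpm in cm*Gch1* KO, with 4 cm*Gch1* KO libraries below every WT library (−0.22, SE 0.10, unadjusted p = 0.041, FDR 0.402, edgeR).

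In complex IV, 13 of 15 tested members had a log2 fold change below 0, with a median of −0.16. *Cox4i1* encodes the largest nuclear subunit and was at 1543, 2046 and 2898 cpm in WT and 1333, 1733 and 2528 cpm in cm*Gch1* KO, with wide overlap (−0.24, SE 0.19, FDR 0.723, edgeR). Its oxygen-responsive isoform *Cox4i2* was at 6.0, 7.12 and 12.3 cpm in WT and 5.85, 6.93 and 8.26 cpm in cm*Gch1* KO (−0.18, SE 0.17). *Cox5a* and *Cox5b*, for subunits on the matrix side of the enzyme, were at a median of 482 and 511 cpm in WT and 448 and 469 cpm in cm*Gch1* KO, with log2 fold changes of −0.09 and −0.17. Of the genes that carry no isoform name, *Cox6c*, at −0.16, and *Cox7c*, at −0.19, were near the median of the complex. *Cox7b* on the X chromosome was at 371, 497 and 715 cpm in WT and 233, 425 and 681 cpm in cm*Gch1* KO (−0.23, SE 0.22). *Cox6b1*, for a subunit on the intermembrane side, was at 405, 521 and 715 cpm in WT and 326, 479 and 766 cpm in cm*Gch1* KO (−0.08, SE 0.19). *Cox7a2l* encodes a factor that joins complexes III and IV rather than a standard subunit, and was at 167, 205 and 253 cpm in WT and 172, 182 and 259 cpm in cm*Gch1* KO (−0.09, SE 0.13). The testis isoforms failed the filter, with *Cox6b2* at 0.837 to 2.16 cpm and *Cox7b2* at 0 to 0.274 cpm over the 12 libraries. *Cox7b2*, with 0 to 9 counts, was near the lower limit of measurement, while *Cox6b2* had 18 to 67 counts.

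The muscle-type isoforms were taken separately, each beside its ubiquitous partner. Per kilobase of the principal transcript, the muscle-type isoform had the higher mean in each pair. In WT, *Cox6a2* was at 1332 ± 197 cpm per kilobase and *Cox6a1* at 96.2 ± 20.7 (SD, n = 6). *Cox7a1* was at 721 ± 232 cpm per kilobase in WT and *Cox7a2* at 435 ± 105 (SD, n = 6). For this pair the order depended on the length used: per coding kilobase, *Cox7a1* was at 1181 ± 379 cpm and *Cox7a2* at 1152 ± 277 cpm in WT, and at 895 ± 310 cpm and 1033 ± 317 cpm in cm*Gch1* KO (SD, n = 6). *Cox8b* was at 515 ± 152 cpm per kilobase in WT and *Cox8a* at 145 ± 24.7 (SD, n = 6). The muscle-type forms had log2 fold changes of −0.16, −0.40 and −0.16, in the same order, and their partners 0.02, −0.16 and 0.03. None of these differences passed the edgeR test (smallest FDR 0.612, for *Cox7a1*). The values of *Cox6a2*, *Cox7a1* and *Cox8b* rested in part on cm*Gch1* KO replicate 4, without which they were −0.04, −0.26 and 0.00. Without WT replicate 4 they were −0.15, −0.25 and −0.05, and without WT replicate 1 −0.09, −0.33 and −0.07. Leaving out cm*Gch1* KO replicate 3 instead gave −0.22, −0.50 and −0.32. Without both libraries with high *Xist* they were −0.22, −0.52 and −0.28.

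*Cox7a1* had the largest log2 fold change of all members and also one of the widest spreads. It was at 183, 269.8 and 421 cpm in WT and 101, 211 and 307 cpm in cm*Gch1* KO, and 2 of 6 cm*Gch1* KO libraries were below every WT library (−0.40, SE 0.25, FDR 0.612, edgeR). Its partner *Cox7a2* was at 214, 278 and 389 cpm in WT and 153, 245 and 376 cpm in cm*Gch1* KO (−0.16, SE 0.20). Levels of both were high and low together across libraries, and the SD of their log2 ratio was 0.15 in WT and 0.17 in cm*Gch1* KO, against a within-genotype SD of log2 cpm of 0.52 for *Cox7a1* and 0.40 for *Cox7a2*. The ratio of *Cox7a1* to *Cox7a2* cpm was 0.856, 0.978 and 1.08 in WT and 0.663, 0.819 and 0.929 in cm*Gch1* KO, with 4 of 6 cm*Gch1* KO libraries below every WT library. The log2 difference was −0.24 (SE 0.09), and the exact permutation test gave p = 0.022, or 0.130 after Benjamini-Hochberg adjustment over the 6 isoform ratios tested. Without the libraries with high *Xist* the log2 difference was −0.27, with an exact permutation p of 0.038 and an adjusted value of 0.229.

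The log2 differences of the other muscle-type ratios were also below 0, with larger errors. *Cox6a2* was at 767, 892 and 1127 cpm in WT and 464, 808 and 1105 cpm in cm*Gch1* KO, and *Cox6a1* at 43.9, 51.6 and 69.4 cpm in WT and 35.8, 55.0 and 76.3 cpm in cm*Gch1* KO. Their ratio was 13.7, 16.3 and 22.0 in WT and 10.3, 15.2 and 18.2 in cm*Gch1* KO, a log2 difference of −0.20 (SE 0.15, exact permutation p = 0.219, adjusted 0.437). This difference was −0.11 without cm*Gch1* KO replicate 2, −0.12 without WT replicate 6 and −0.10 without both libraries with high *Xist* (exact permutation p = 0.505, adjusted 0.709). *Cox8b* was at 124, 180.1 and 253 cpm in WT and 71.2, 157 and 252 cpm in cm*Gch1* KO, and *Cox8a* at 62.0, 78.4 and 97.7 cpm in WT and 50.2, 83.9 and 108 cpm in cm*Gch1* KO. Their ratio was 1.89, 2.30 and 2.74 in WT and 1.42, 1.93 and 2.78 in cm*Gch1* KO, a log2 difference of −0.24 (SE 0.18, exact permutation p = 0.203, adjusted 0.437). Leaving out 1 library moved it between −0.15, without cm*Gch1* KO replicate 4, and −0.35, without cm*Gch1* KO replicate 3, and it was −0.29 without both libraries with high *Xist* (exact permutation p = 0.124, adjusted 0.371). For *Cox4i2* to *Cox4i1* the log2 difference was 0.09 (SE 0.14, exact permutation p = 0.552, adjusted 0.660). None of the 6 ratios passed 0.05 after adjustment, and in each of them the genotypes overlapped.

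**Figure D3:**
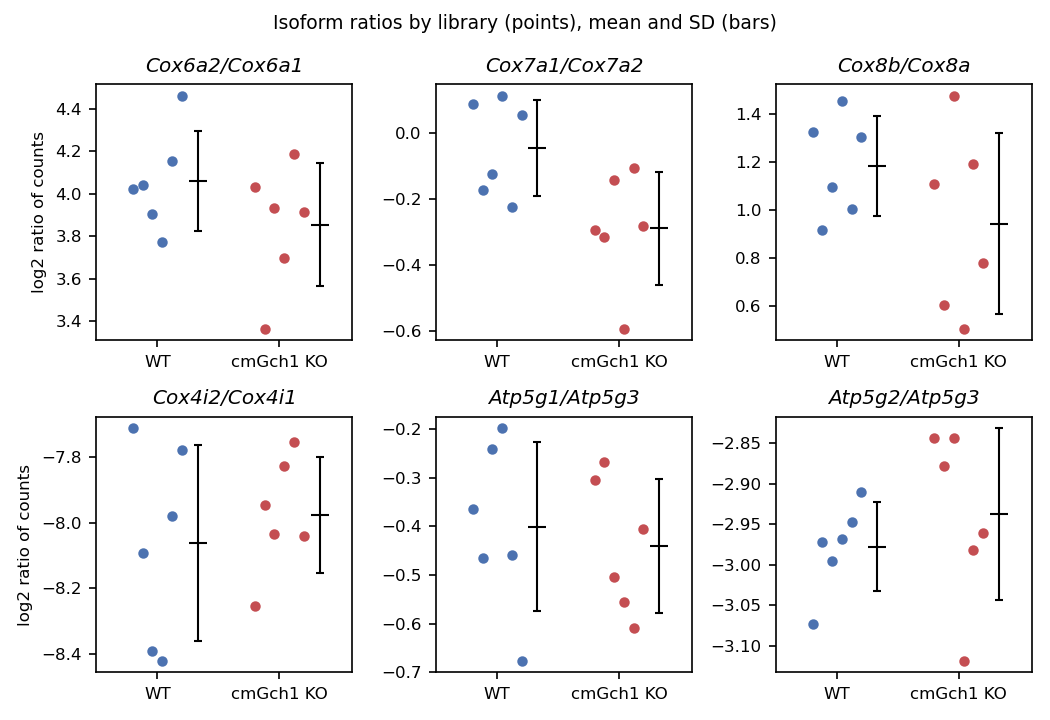
Log2 ratio of cpm between isoforms in each library (vertical axes; points are WT and cm*Gch1* KO replicates 1 to 6 from left to right, with the mean and SD beside them). The *Cox7a1* to *Cox7a2* panel has 4 cm*Gch1* KO points below every WT point, and the genotypes overlap in all 6 panels.

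The sequence around the annotated start of these genes was read for members whose values are contrasted above. RefSeq windows of 250 bases before to 50 after the annotated start (GRCm38.p6) were found for 34 of the 44 members in the counts table. The unmatched members were *Atp5a1*, *Atp5mpl*, *Cox4i1*, *Cox4i2*, *Cox6a2*, *Cox6c*, *Cyc1*, *Uqcrb*, *Uqcrc2* and *Uqcrq*. On both strands, the ETS core CCGGAAG was present in 10 of 34 member windows (29.4%), against 9.92% of the 26994 genes with a window. The NRF1 palindrome, GCGCA followed by its reverse complement, was present in 4 (*Atp5g2*, *Atp5k*, *Cox6a1* and *Uqcrc1*, 11.8%), against 1.07%. The string TCAAGGTCA, bound by oestrogen-related receptors, was found in *Atp5g3* alone (0.467% of all genes), and the YY1 string AAGATGGCG in *Atp5j* and *Atp5j2* (1.63%). A loose pattern searched for MEF2, CTA and TAG with 4 bases of any kind between them, was present in *Cox5b* (4.24% of all genes). It leaves the 4 middle bases open, so a match to it is not specific to MEF2. The E-box CAGCTG was present in *Atp5b* and *Cox8b* (18.3% of all genes), and TATAAA in *Atp5l*, *Cox7b2* and *Cox8b* (15.7%). No matches of different strings overlapped in these windows.

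Windows of 4 members are shown because they belong to the core subunit with the smallest unadjusted p, to the *Cox7a1* and *Cox7a2* pair and to a muscle-type isoform, with capitals marking matches to the strings above (the NRF1 palindrome in *Uqcrc1*, the E-box and TATAAA in *Cox8b*). They lie at chr9:108936398-108936697 (plus strand), chr7:30183921-30184220 (plus), chr9:79759804-79760103 (minus) and chr7:140900397-140900696 (minus), in GRCm38.p6, and are written 5′ to 3′.
Uqcrc1: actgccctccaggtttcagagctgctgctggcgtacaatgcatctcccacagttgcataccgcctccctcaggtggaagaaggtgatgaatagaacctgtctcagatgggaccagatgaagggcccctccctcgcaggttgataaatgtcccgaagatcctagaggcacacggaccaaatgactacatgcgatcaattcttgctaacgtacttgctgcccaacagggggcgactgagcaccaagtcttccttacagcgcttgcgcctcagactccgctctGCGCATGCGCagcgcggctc
Cox7a1: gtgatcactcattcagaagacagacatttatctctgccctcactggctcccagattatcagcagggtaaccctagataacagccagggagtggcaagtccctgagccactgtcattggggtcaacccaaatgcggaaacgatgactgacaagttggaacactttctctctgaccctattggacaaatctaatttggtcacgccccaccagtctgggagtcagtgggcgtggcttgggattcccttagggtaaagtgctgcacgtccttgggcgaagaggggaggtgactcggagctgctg
Cox7a2: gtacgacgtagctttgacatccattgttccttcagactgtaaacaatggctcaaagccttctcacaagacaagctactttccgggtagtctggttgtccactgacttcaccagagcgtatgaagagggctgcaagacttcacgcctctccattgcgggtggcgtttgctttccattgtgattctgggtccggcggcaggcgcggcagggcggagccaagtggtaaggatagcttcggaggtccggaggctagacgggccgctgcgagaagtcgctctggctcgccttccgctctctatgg
Cox8b: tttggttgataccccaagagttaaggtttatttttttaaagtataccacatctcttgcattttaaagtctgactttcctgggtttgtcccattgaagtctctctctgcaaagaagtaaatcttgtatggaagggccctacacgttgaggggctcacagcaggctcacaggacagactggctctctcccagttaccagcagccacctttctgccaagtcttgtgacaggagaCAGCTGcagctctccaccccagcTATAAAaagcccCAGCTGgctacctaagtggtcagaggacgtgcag
The windows of *Cox7a1* and *Cox7a2* held none of the strings searched. In *Uqcrc1* the NRF1 palindrome began 30 bases after the annotated start. In *Cox8b* TATAAA began 4 bases after the start, and the E-boxes began 19 bases before and 16 bases after it. A match describes letters in a window and is not a measured binding site.

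Libraries of 1 genotype differed widely from each other, and the members shared this pattern. Over the 12 libraries, members ranged 1.15-fold to 4.15-fold from lowest to highest, and 24 of 42 ranged over more than 2-fold. WT replicate 4 had the highest value for 19 members, cm*Gch1* KO replicate 1 for 11 and WT replicate 1 for 8. cm*Gch1* KO replicate 4 had the lowest value for 29 members and cm*Gch1* KO replicate 5 for 10. Within cm*Gch1* KO, replicate 1 was the highest library for 38 of 42 members. Relative to each gene's mean, the members of complex III, IV and V had a median log2 level of −0.50, −0.66 and −0.31 in cm*Gch1* KO replicate 4 and of 0.32, 0.40 and 0.35 in cm*Gch1* KO replicate 1. The muscle-type isoforms had a median of −1.21 in cm*Gch1* KO replicate 4. Leaving out cm*Gch1* KO replicate 1 moved the median log2 fold change of all members to −0.26, and leaving out cm*Gch1* KO replicate 4 moved it to −0.07, with 33 of 42 members below 0; without WT replicate 4 it was −0.07 and without WT replicate 1 it was −0.09.

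**Figure D4:**
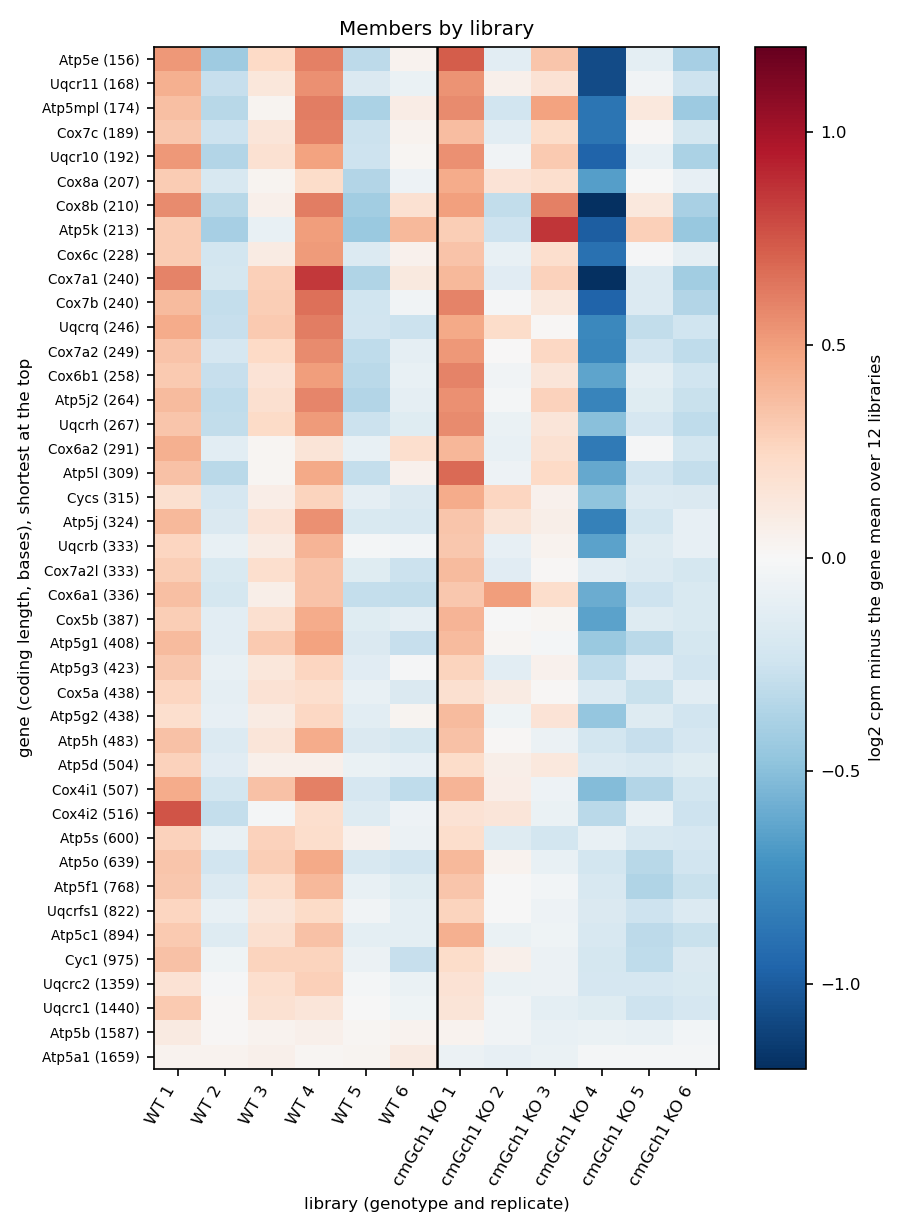
Log2 cpm minus the mean of each gene over 12 libraries (colour), for the 42 tested members sorted by coding length in bases (rows) in WT and cm*Gch1* KO replicates 1 to 6 (columns). Short members are high together in WT replicates 1 and 4 and cm*Gch1* KO replicate 1 and low in cm*Gch1* KO replicate 4, while *Atp5a1* and *Atp5b*, the longest, range 1.15-fold.

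The spread followed the length of the coding sequence. Across the 42 members, which run from 156 to 1659 coding bases, the SD of log2 cpm within a genotype fell as coding length rose. The Spearman rho was −0.87 across genes that share libraries, against −0.07 for the other 10727 genes with a coding length. The rho values cover unlike lengths, since 3818 of the other genes had 1800 coding bases or more, with a median SD of 0.19. Below that length the median SD of the other genes also fell. It was 0.32, 0.28, 0.20 and 0.17 in classes ending at 300, 450, 900 and 1800 bases. The SD was 0.03 for *Atp5a1* and 0.57 for *Cox8b*. The 17 members under 300 coding bases had a median SD of 0.42, against 0.32 for the 204 other genes of that length and 0.29 for the 29 of them over 100 cpm. The 5 members of 900 to 1800 bases had a median SD of 0.14, against 0.17 for the 4106 other genes of that length and 0.12 for the 488 of them over 100 cpm. The median log2 fold change was −0.16 for the shortest members and −0.17 for the longest, against −0.06 and 0.00 for other genes of these lengths and −0.11 and −0.04 for those of them over 100 cpm. With the shared level of 685 short genes (under 450 coding bases) as a covariate, a setting chosen after the data were seen, *Uqcrc1* (FDR 0.047) and *Uqcrc2* (FDR 0.037) were called lower by edgeR, which is 2 of 42 members against 2.18% of all tested genes. With 1 surrogate variable 4 members were called lower by edgeR, *Uqcrc1* (FDR 0.009), *Uqcrc2* (0.021), *Atp5f1* (0.028) and *Cyc1* (0.038), against 2.98% of all tested genes.

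**Figure D5:**
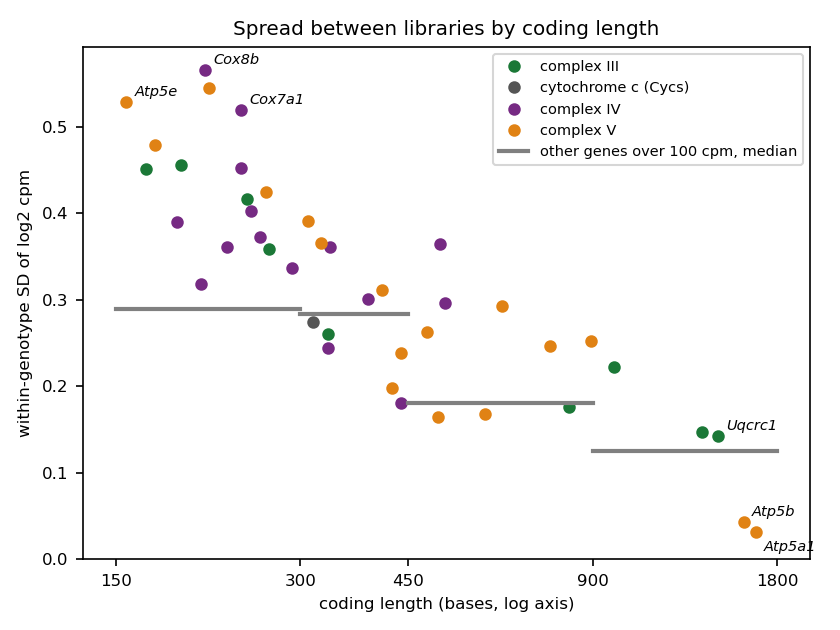
SD of log2 cpm within a genotype (vertical axis) against coding length in bases (log axis) for the 42 tested members, coloured by complex, with the median of other genes over 100 cpm in the same length class as grey lines. Members run from 0.57 (*Cox8b*) to 0.03 (*Atp5a1*), and those under 300 bases have a median of 0.42 against 0.29 for the grey line.

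The nuclear members together took 2.83 to 3.69% of all counts in WT and 2.53 to 3.60% in cm*Gch1* KO. The 6 subunits of the same complexes that mitochondrial DNA encodes took 10.5 to 12.6% in WT and 8.34 to 12.2% in cm*Gch1* KO, with the lowest shares in the libraries with high *Xist*. In the cm*Gch1* KO libraries without high *Xist* this share was 10.6 to 12.2%. The log2 fold changes of these 6 genes were below 0 for 5 of 6, with a median of −0.19, or −0.15 without the libraries with high *Xist*, and none passed the edgeR test. *mt-Co1*, the catalytic subunit of complex IV, was at 73746, 88251 and 99904 cpm in WT and 50151, 78093 and 87656 cpm in cm*Gch1* KO (−0.27, SE 0.14, FDR 0.524, edgeR), and its log2 fold change was −0.08 (SE 0.10) without the libraries with high *Xist*. Among related genes no FDR was under 0.05 in edgeR either. Assembly factors had a log2 fold change below 0 for 5 of 6 genes of complex III (−0.17 to 0.11, median −0.08), 16 of 20 of complex IV (−0.27 to 0.32, median −0.08) and 3 of 3 of complex V (−0.22 to −0.04, median −0.05). The 4 subunits of complex II had a median of −0.14, and 38 of 38 tested genes of complex I had a log2 fold change below 0 with a median of −0.14. Carriers and channels for ATP, ADP and phosphate had 3 genes below and 3 above 0 with a median of 0.01, and the complex IV associated proteins had 3 of 4 below 0 with a median of −0.09. Regulators of respiratory chain genes had 5 of 8 below 0 with a median of −0.01. Of these, *Ppargc1a*, the coactivator of mitochondrial biogenesis, was at 65.1, 95.3 and 129 cpm in WT and 62.8, 76.6 and 105 cpm in cm*Gch1* KO (−0.26, SE 0.16, FDR 0.606).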

How the data were processed

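Total RNA from the left ventricle of 6 WT and 6 cm*Gch1* KO mice had been sequenced by the authors as stranded, paired-end dUTP libraries. The submitters' processing notes name HISAT2, SAMtools and GRCm38, and the methods also name Picard and featureCounts. Which annotation was counted, and with which strand option, is not given in the sources used here. The authors deposited raw counts per Ensembl gene, without normalization, and a second table of normalized values on a log2 scale, used as an alternative only. The 12 columns of each table were matched to samples by their titles, and 0 columns were left unmapped. Symbols were found in GENCODE M21 for 26582 of 26921 identifiers.

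Counts were tested with edgeR 4.0.16 in R 4.3.3 (quasi-likelihood test, TMM scaling, no covariate) on the 11225 genes that exceeded 3 cpm in 6 or more libraries, with Benjamini-Hochberg adjustment over all of them and an FDR threshold of 0.05. The cpm values are TMM-scaled. On simulated counts for 11225 genes, 100% of genes with a log2 fold change of 1 and 96% with 0.58 were recovered. The simulation gave every gene the median dispersion, with independent noise. Members vary together and spread more, with a median within-genotype SD of log2 cpm of 0.31 against 0.19 for other genes. The recovered shares therefore do not say how often such changes in members would be called. Single members and isoform ratios (prior count 0.5) were compared by exact two-sided permutation of the genotype labels. A count of 0 allows up to 3 counts, or 0.151 cpm in the shallowest library, which covers counting error only. Alternatives were DESeq2 1.42.0, limma 3.58.1 on the deposited log2 values, 1 surrogate variable from sva 3.50.0, other scalings and filters, a replicate block, a covariate for *Xist* and Y-linked genes, leaving out each library and, chosen after seeing the data, the level of short transcripts as a covariate and, for the other gene lists, leaving out the libraries with high *Xist*.

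The members and lists were chosen with earlier results of these data known. Members named with values were the isoform sets, the c-ring genes, the core subunits, in each complex the 2 lowest members with a log2 fold change below 0 and the 2 highest above 0 (complexes III and V had none above 0), those whose genotypes did not overlap and, by range, those failing the filter; others named with a value were chosen after their values were seen. Other genes came from lists of assembly factors, mitochondrially encoded subunits, complexes I and II, exchange proteins, regulators and cell type markers. Levels per kilobase used the length of the principal transcript in M21. Replicate numbers in the sample titles do not come with a statement of shared litter or batch.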

Additional observations from a re-analysis of the deposited data

Results flagged for a closer look

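Among 90 groups of 6 values examined for single libraries that stand apart, 4 were flagged because the gap between 1 value and the nearest other exceeded the critical share of the group's range in Dixon's test; chance flags about 5% of groups. All 4 were the highest value of cm*Gch1* KO, in replicate 1. *Cox7a2l* was at 259 cpm there and at 172 to 201 cpm in the other cm*Gch1* KO libraries. *Uqcrc2* was at 1154 cpm, against 889 to 973 cpm in the others. *Atp5c1* was at 1365 cpm, against 817 to 975 cpm, and *Atp5s* at 27.8 cpm, against 20.6 to 22.5 cpm. Without this library the log2 fold change of *Uqcrc2* was −0.24 (FDR 0.136, edgeR), that of *Atp5s* −0.29 (0.109) and that of *Atp5c1* −0.27 (0.223). The cause was not tested.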

How the results depend on the processing

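The number of members called lower at an FDR of 0.05 was 0 under edgeR and moved to 1 with the Wald test of DESeq2, 4 with 1 surrogate variable and 2 with the short-transcript covariate, which was chosen after seeing the data; it was 0 under each of the other settings and without each library in turn (0 to 0). The number of members with an exact permutation p under 0.05 moved from 3 to 0 with library size alone. The direction turned for *Cycs* without a filter (−0.019), with the replicate block (−0.019), the *Xist* covariate (−0.061), without the libraries with high *Xist* (−0.071), with 1 surrogate variable (−0.025) and in the deposited values (−0.029); for *Cox6a1* with the *Xist* covariate (−0.14), without those libraries (−0.16) and in the deposited values (−0.0020); for *Cox8a* with the covariate (−0.029) and without those libraries (−0.037); with library size alone for *Atp5d* (0.050), *Atp5k* (0.068) and *Atp5l* (0.013); and for *Atp5k* with the short-transcript covariate (0.027). Leaving out each library in turn gave −0.10 to 0.083 for *Cycs*, −0.090 to 0.12 for *Cox6a1*, −0.061 to 0.14 for *Cox8a*, −0.24 to 0.021 for *Cox6b1*, −0.076 to 0.029 for *Atp5d*, −0.26 to 0.0019 for *Atp5j2*, −0.24 to 0.13 for *Atp5k*, −0.24 to 0.038 for *Atp5l*, −0.22 to 0.044 for *Atp5mpl* and −0.095 to 0.00026 for the log2 ratio of *Atp5g1* to *Atp5g3*. These 9 of 42 members changed direction in at least 1 of the settings run, and the other 33 in none of them. With library size alone 36 of 42 members were below 0, with a median of −0.08 against 0.07 for all genes. The causes were not tested.

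The replicate numbers were not taken as pairs, since the correlations of deviations for numbers 1 to 6 were 0.68, −0.09, −0.08, −0.13, 0.40 and 0.51, over 0.1 for 3 of the 6. With the block, as sign changes within same-numbered pairs, the *Cox7a1* to *Cox7a2* ratio had an exact permutation p of 0.094 (adjusted 0.562), where the smallest possible is 0.031. A replicate block in edgeR gave 0 members called and 40 of 42 below 0, and it moved the calls over all genes from 50 lower and 76 higher to 76 and 112. Over all genes the calls were 36 lower and 116 higher with library size alone, 155 and 218 with DESeq2, 334 and 302 with 1 surrogate variable, 245 and 262 with the short-transcript covariate, 24 and 40 with the *Xist* covariate and 18 and 20 without the libraries with high *Xist*. WT replicates 1, 5 and 6 correlated best with their own number, which is a hint from the data only.

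The strand option of the counting is not given. Members whose exons overlap a gene on the other strand (*Cox4i1*, *Cox5a*, *Cox6a2*, *Cox6c*, *Uqcrb*, *Uqcrc2*, *Atp5a1*, *Atp5d*, *Atp5f1*, *Atp5j*, *Atp5l*, *Atp5o*) are less certain. Members with a pseudogene annotated under their own symbol (*Cycs*, *Uqcrh*, *Atp5c1*, *Atp5k*, *Atp5l*) are also less certain. Pseudogenes under other names were not counted, so the other members are not shown to be free of them. High *Xist* and the Cre transgene are not balanced between genotypes.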
